A study of Rattus norvegicus with 2 samples.

Results

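Rat chromosome 11 was represented by 7816 of the 235872 probes kept in the series, or 3.38% of the 231247 probes placed on chromosomes 1 to 20 and X. Its members were all probes that are not controls, carry no outlier mark in either colour on either array and lie on chromosome 11 of the assembly rn4, without the sequence that is assigned to this chromosome but not placed along it. The chromosome was selected on its measured levels, because its 1 Mb fragments were more often above 0 than those of the other chromosomes. Its levels are therefore given as a description, with no test of the chromosome against the rest of the genome.

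The samples were kidney DNA from 2 male Wistar rats (written Wister in the labels) of 5 weeks of age, untreated and kept under specific pathogen-free conditions, with 1 array per rat. Argon and the iron chelator Desferal (0.1 mM) were used to protect the DNA while it was isolated. Fragments that carry 8-oxoG were collected with the antibody N45.1, labelled with Cy5 and hybridised together with input DNA that had not been immunoprecipitated and was labelled with Cy3, using 800 ng of DNA for each labelling. Both arrays form a single group. There was no treated or repair-deficient animal to set beside it, whole kidney mixes many cell types, and the dyes were not swapped, so that an effect of the dyes and an effect of the immunoprecipitation (IP) cannot be told apart.

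Of the DNA bases, guanine gives up electrons most readily, and 8-oxoguanine (8-oxoG) is a product of its oxidation. The oxidised base can pair with adenine as well as with cytosine, so that replication past the lesion can turn a G:C pair into a T:A pair. The DNA glycosylase OGG1 removes 8-oxoG opposite cytosine, and MUTYH removes adenine that has been placed opposite the lesion. The kidney is a tissue with dense mitochondria and a high oxygen demand, and oxidising renal carcinogens are known to raise 8-oxoG in its DNA.

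The level of a probe was log2(IP/input), taken from the processed intensities of both channels and set to a median of 0 on each array. A probe at 0 is therefore a typical probe of its array, and the value does not mean that 8-oxoG was absent. The probes of chromosome 11 are 60 bases long in the median and span chr11:17500-87743397, a length of 87.7 Mb. The mean interval from probe to probe was 11225 bases and the median interval 7958 bases, and 8 intervals exceed 100 kb. The arrays differed in brightness, rat 1 being the brighter in both channels. The median input intensity was 82.2 in rat 1 and 63.3 in rat 2, and the median IP intensity was 91.5 and 68.9. Signals were well above background in both colours on both arrays for 6048 probes, or 77.4%, against 78.2% of all placed probes. Among the autosomes, chromosome 11 had the lowest share above background in rat 2, with 79.0%, and in rat 1 it had 82.2%, with only chromosome 20 lower. No spot of chromosome 11 was saturated. With 2 arrays, the precision of each level is limited by their number.

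Single probes scattered widely. In rat 1 the probes of chromosome 11 had a mean level of 0.08 with an SD over probes of 0.98, and in rat 2 a mean of -0.02 with an SD of 1.25. The mean of the chromosome was thus 0.03 ± 0.07 (SD, n = 2), and the rats lay on different sides of 0. With normexp background correction, in which an offset of 50 is added to both channels, it was -0.05, with both rats below 0. This setting starts from median intensities, without the dye normalisation and removal of spatial trends in the processed intensities. Its offset draws log ratios towards 0, most where probes are dim, so that its levels are not on the main scale. After removal of the trend of the level on input brightness the mean of the chromosome was 0.0020. Rat 2 was above 0 before dye normalisation, with 0.03, and after centring on the mean, with 0.07. Both rats had the same sign at 64.9% of the probes, and the correlation between them over the 7816 probes was 0.37. Strong levels were more often high than low. Levels above 1 in both rats were found at 584 probes, or 7.47%, and levels below -1 in both rats at 319 probes, or 4.08%. Over all placed chromosomes these shares were 5.85% and 4.67%. In 33 probes printed repeatedly on the array, spots of the same probe had an SD of 0.28 in rat 1 and 0.27 in rat 2, which was smaller than the scatter between probes.

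Averaging over 1 Mb brought out a pattern that both rats share. The chromosome was divided into 88 non-overlapping fragments of 1 Mb, with a median of 84 probes (43 to 184), and 15 of them hold fewer than 50 probes. Averaged log2(IP/input) values were above 0 in 60 fragments of rat 1 and in 45 fragments of rat 2. In 44 fragments (50%) both rats were above 0, which is the value on which the chromosome was selected, and over all 2731 fragments of the genome the share was 32.8%. In 27 fragments (30.7%) both rats were below 0, against 48.8% over the genome. The sign was thus shared by the rats in most of the fragments. The remaining 17 had opposite signs, with rat 1 above 0 in 16 of them. In the mean of both rats 56 of 88 were above 0. The fragments above 0 thus outnumbered those below 0, but with normexp background correction the order turned, with 17 fragments above 0 in both rats and 53 below 0 in both.

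**Figure D1:**
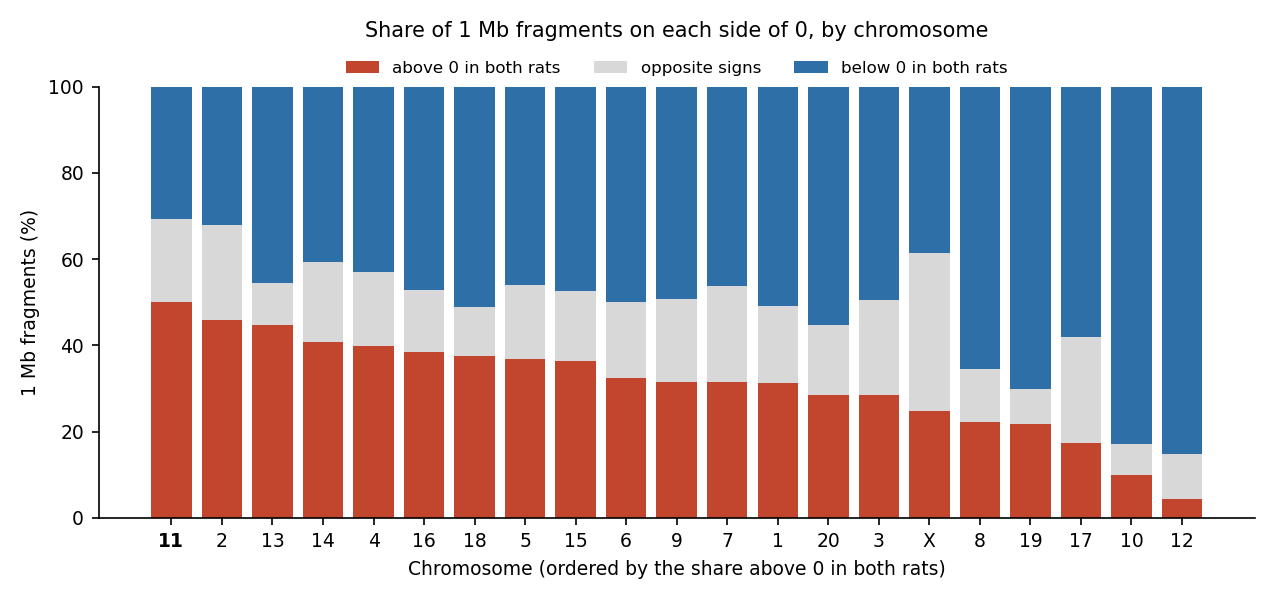
Share of the 1 Mb fragments of each chromosome that were above 0 in both rats (red), of opposite signs (grey) or below 0 in both rats (blue), with chromosomes ordered by the red share. Chromosome 11 is at the left end with 50% above 0 in both rats, followed by chromosome 2 with 45.9%.

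The chromosomes next in this order were chromosome 2, with 45.9% of its fragments above 0 in both rats and 32.0% below, chromosome 13, with 44.6% and 45.5%, and chromosome 14, with 40.7% for each sign. In the mean over probes, chromosome 2 stood slightly above chromosome 11, at 0.03 ± 0.08 against 0.03 ± 0.07 (SD, n = 2), and the pair differed by less than the spread between rats. The gap between chromosomes 11 and 13 was thus wider in the share below 0 than in the share above 0. The SD over fragments was 0.29 on chromosome 11, 0.26 on chromosome 2 and 0.30 on chromosome 13. After normexp background correction chromosome 11 ranked 5 of the 21 chromosomes in the share above 0 in both rats, with 19.3%. These values are set side by side without a test, because chromosome 11 was chosen from them.

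The fragments of chromosome 11 ranged from -0.50 to 0.66, with a median of 0.09 and quartiles of -0.17 and 0.32. When each fragment was compared with 0 by limma, fitted over all 2731 fragments of the genome with Benjamini-Hochberg adjustment at 0.05, 28 fragments of chromosome 11 were above 0 and 14 were below 0. Over the genome 20.9% of the fragments were called above 0 and 20.4% below. As the chromosome was selected on these levels, nothing is read from this comparison. All 28 and all 14 had the called sign in both rats. The called levels nearest to 0 were 0.26 and -0.26, since the pooled spread gave each fragment the same standard error of 0.10. The p-values rest only on the spread between these 2 rats, pooled over the fragments. The difference between the rats in a fragment thus hardly enters its own p-value, and the calls amount to a limit on the mean level.

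With a level beyond 0.25 on the same side in both rats as the criterion, 21 fragments were above and 13 below, and over the genome the shares were 13.0% and 10.4%. Normexp background correction left no fragment of chromosome 11 called above 0 by limma, also at an unadjusted p of 0.05, and 4 called below 0, where 0.256% and 3.63% of the fragments of the genome were called. At an unadjusted p under 0.05, 19 fragments were below 0, against 33 above and 19 below in the main setting. Removal of the trend of the level on input brightness left 13 above and 10 below, beside 10.8% and 11.8% over the genome. The share of fragments above 0 in both rats was then 48.9%, and 25 fragments above 0 had an unadjusted p under 0.05 in limma.

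**Figure D2:**
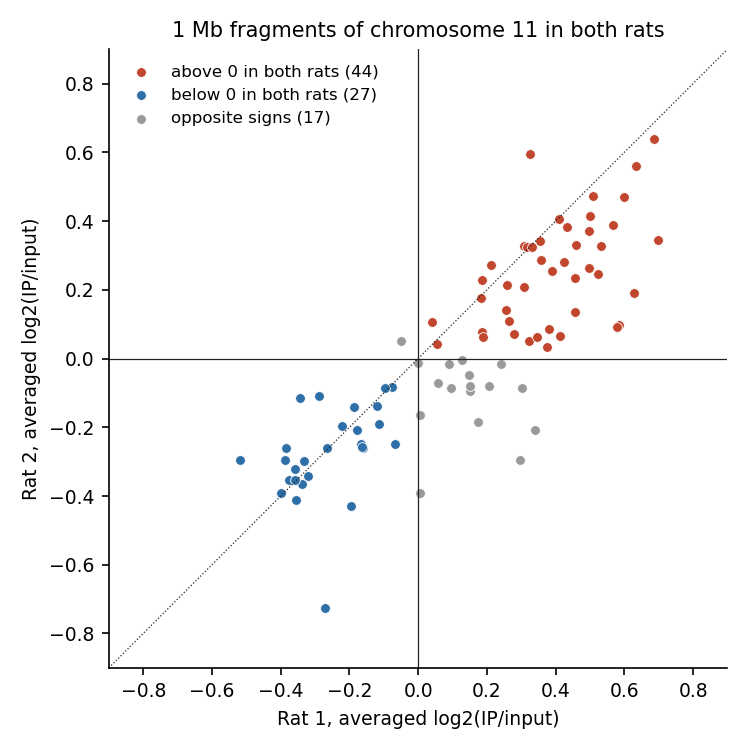
Averaged log2(IP/input) of the 88 fragments of 1 Mb of chromosome 11 in rat 1 (horizontal) and rat 2 (vertical), coloured by sign, with the line of equal levels dotted. Most points follow the line, and the 17 fragments of opposite signs lie almost entirely where rat 1 was above 0 and rat 2 below.

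The rats resembled each other more, the longer the fragments were. Pearson's r between the arrays on chromosome 11 was 0.64 over 439 fragments of 200 kb, 0.75 over 176 fragments of 500 kb, 0.84 over 88 fragments of 1 Mb and 0.90 over 44 fragments of 2 Mb. Over all chromosomes the corresponding values were 0.58, 0.71, 0.80 and 0.86. These are correlations across positions, which are not independent of each other and share the probes and their brightness on the 2 arrays. Fragments of 1 Mb in one rat had an r of 0.57 with the neighbouring fragment in the other rat, 0.44 at 2 Mb, 0.22 at 5 Mb and 0.03 at 10 Mb. Levels on this chromosome therefore varied over a few Mb, and fragments 10 Mb apart were hardly related.

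Rat 1 was higher than rat 2 in 67 of the 88 fragments, even after each array had been set to a median of 0. The difference was 0.12 on average with an SD of 0.17. It was 0.14 (SD 0.16) over the 44 fragments above 0 in both rats and 0.24 (SD 0.18) over the 17 fragments of opposite signs. Over the 27 fragments below 0 in both it was 0.01 (SD 0.14), as a mean over differences from -0.23 to 0.45, with rat 1 higher in 13 of them. Rat 1 was also the higher over the probes of the other chromosomes, with a mean level of -0.02 against -0.10 in rat 2. Nothing particular to chromosome 11 is therefore read from the offset. These differences, and which fragments have opposite signs, depend on the centring of the arrays. After centring on the mean, the probes of chromosome 11 had a mean level of 0.09 in rat 1 and 0.07 in rat 2.

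A smoothed profile was made with a sliding window centred on each probe, which reached 500 kb to either side and within which levels were averaged. Runs of adjacent probes whose smoothed level was above 0 are called rich stretches and the others depleted. Rich stretches covered 62.5% of the spanned length but held 53.2% of the probes, because probes were sparser in them. After normexp background correction they covered 29.4% of the length and were thus the smaller part, and without the trend on input brightness they covered 61.8%. There were 12 rich stretches of at least 1 Mb, together 51.6 Mb long with a median length of 2.81 Mb, and 5 depleted stretches of at least 1 Mb, together 28.6 Mb long with a median length of 5.29 Mb. In each of these 17 stretches the mean level had the same sign in both rats. The rich length was thus divided into more and mostly shorter pieces than the depleted length, with the exception of the first stretch. The other 52 stretches were shorter than 1 Mb and together made up 6.34 Mb.

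**Figure D3:**
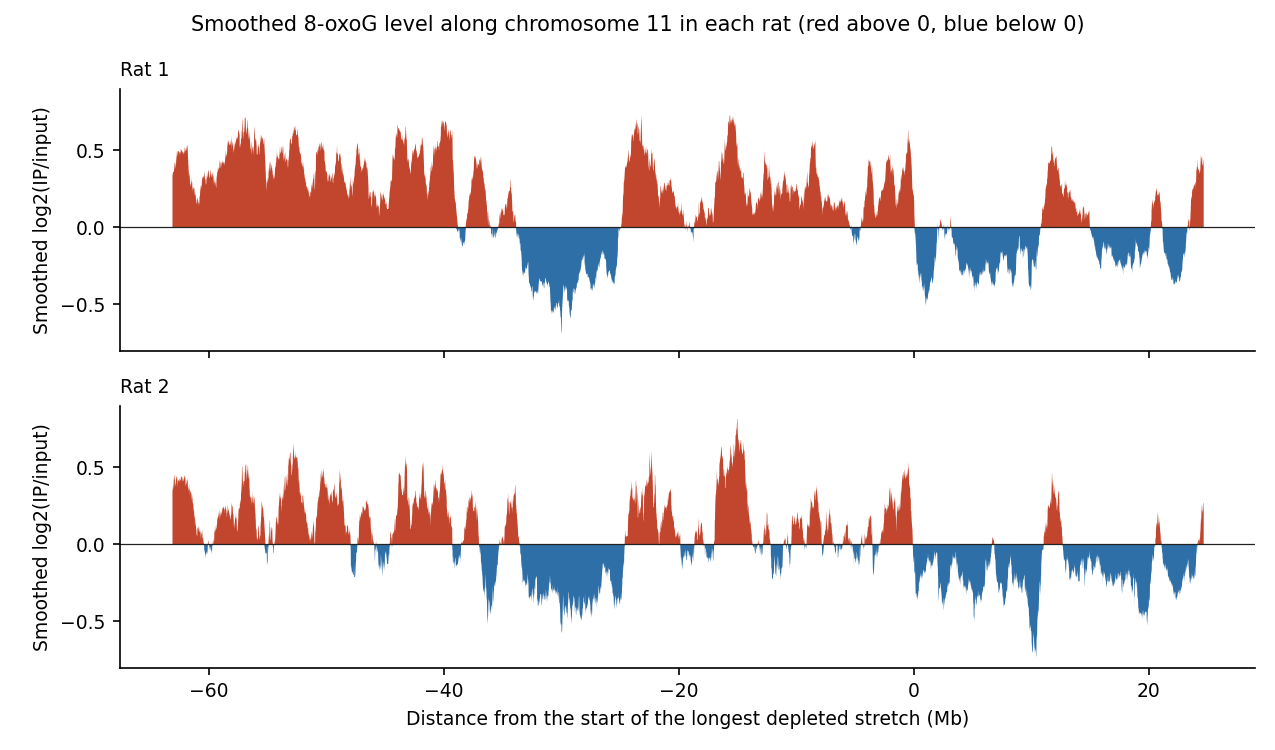
Smoothed log2(IP/input) along chromosome 11 in rat 1 (top) and rat 2 (bottom), against the distance in Mb from the start of the longest depleted stretch, red above 0 and blue below. In both rats the sequence left of 0 was mostly rich, apart from a depleted stretch between -33.6 and -24.8 Mb and shorter ones, and that to the right of 0 was mostly depleted.

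The longest rich stretch began at the first probe and ran over chr11:17500-17556745, or 17.5 Mb. Its 1435 probes had a mean level of 0.40 in rat 1 and 0.23 in rat 2, and 64.5% of them were above 0 in the mean of the rats. This stretch comprises a run of 15 neighbouring fragments, from the start to 15 Mb, that were all above 0 in both rats. Its length depended on the window and on the animal. With a mean over 250 kb on either side the longest rich stretch was 7.68 Mb, and with 1 Mb on either side it was 26.5 Mb. In rat 1 alone the smoothed level stayed above 0 over 24.1 Mb from the same start, whereas in rat 2 alone the longest rich stretch was 6.45 Mb, chr11:8710303-15161905. Normexp background correction shortened the longest rich stretch to 3.18 Mb. The mean level over the 17.5 Mb was then 0.0093 in place of 0.31, on a scale that the offset compresses.

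The next stretch, chr11:17902535-24120406 (6.22 Mb, 384 probes), had the highest mean level among the rich stretches of at least 1 Mb, with 0.48 in rat 1 and 0.25 in rat 2. With normexp background correction its mean level of 0.36 became 0.015, with rat 2 below 0. Without the trend on input brightness it was 0.24, with 0.36 in rat 1 and 0.12 in rat 2. This stretch is separated from the first by a short interval in which the smoothed level crosses 0 repeatedly. Next in length was chr11:51790048-57693702 (5.90 Mb, 423 probes), with 0.20 in rat 1 and 0.07 in rat 2, and with normexp background correction its mean level of 0.14 changed sign to -0.04. The fourth, chr11:46055801-51009987 (4.95 Mb, 297 probes), had 0.32 in rat 1 and 0.26 in rat 2, and its mean level of 0.29 became 0.00023 with normexp background correction, with rat 2 below 0. It contains the highest point of the smoothed profile, at 47.9 Mb, where the level was 0.66 in rat 1 and 0.72 in rat 2.

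The longest depleted stretch lay in the distal part, at chr11:63129860-73961260 (10.8 Mb, 1257 probes). Its mean level was -0.25 in rat 1 and -0.24 in rat 2. The stretch chr11:29503976-38331952 (8.83 Mb, 833 probes) was the lowest of the depleted stretches of at least 1 Mb, with -0.33 in rat 1 and -0.31 in rat 2, and it lies in the proximal part. Drawn from each rat alone, this stretch was the longest depleted one in both, with 8.87 Mb in rat 1 and 8.93 Mb in rat 2. The smoothed profile reached its minimum there, at 33.1 Mb, with -0.68 in rat 1 and -0.57 in rat 2. All 8 fragments between 30 and 38 Mb were below 0 in both rats.

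Closer to the distal end followed chr11:78034058-83323836 (5.29 Mb, 618 probes), with -0.16 in rat 1 and -0.26 in rat 2, and chr11:84203585-86728909 (2.53 Mb, 437 probes), with -0.22 and -0.23. The last of these had the densest probes of all 17 long stretches, 173 per Mb. The SD between rats was 0.0031 for the longest, 0.01 for the lowest and 0.0071 for the last of these 4 depleted stretches, and 0.07 for the remaining one. Among the 4 longest rich stretches it was between 0.04 and 0.16. This contrast depends on the centring of the arrays. After centring on the mean, the SD was 0.06, 0.07, 0.01 and 0.05 for the depleted stretches in order of length. For the rich stretches it was then 0.07, 0.11, 0.03 and 0.01. With normexp background correction the mean levels of these 4 depleted stretches were, in order of length, -0.10, -0.11, -0.09 and -0.07, and each stayed below 0 in both rats.

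Between the depleted stretches of at least 5 Mb the chromosome falls into blocks. The block from the start to 29.5 Mb had a mean level of 0.36 in rat 1 and 0.19 in rat 2, and 23 of its 29 whole fragments were above 0 in both rats. The block from 38.3 to 63.1 Mb had 0.24 and 0.12, with 17 of 24 fragments above 0 in both rats and none below in both. The block from 74.0 to 78.0 Mb had 0.25 in rat 1 but only 0.01 in rat 2. The last block, from 83.3 Mb to the end, had -0.05 and -0.14. At this limit of 5 Mb the blocks were lower the more distal they lay, in both rats with the exception of the third block in rat 1. The last block holds the depleted stretch of 2.53 Mb, with 437 of its 627 probes. Its rich stretches, from 83.3 to 84.2 Mb and from 86.7 to 87.7 Mb, had mean levels of 0.22 and 0.20, above the 0.13 of the third block. The place of the last block in this order thus depends on the limit, which was chosen after the values were seen.

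Parted at the midpoint of the probed span, at 43.9 Mb, the proximal side had a mean level of 0.19 in rat 1 and 0.07 in rat 2, and the distal side -0.01 and -0.09. The difference of proximal minus distal was 0.20 in rat 1 and 0.16 in rat 2, or 0.18 ± 0.03 (SD, n = 2). Of the fragments on the proximal side, 28 were above 0 in both rats and 10 below, and of those on the distal side 16 and 17. The input was dimmer on the proximal side, with a mean log2 intensity of 5.78 against 6.27 in rat 1 and 5.38 against 5.91 in rat 2, and the part of this in the difference was not tested. Without the trend on input brightness the difference was 0.13, and with normexp background correction it was 0.03.

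The ends of the chromosome differed in mean level. The 341 probes of the first 3 Mb had a mean level of 0.37 in rat 1 and 0.28 in rat 2. The 449 probes of the last 3 Mb had -0.09 and -0.17, although the very end, chr11:86734655-87743397, formed a rich stretch of 1.01 Mb with 0.39 in rat 1 and 0.02 in rat 2. Of the last 3 fragments, that from 85 to 86 Mb was below 0 in both rats, that from 86 to 87 Mb had opposite signs, and that from 87 to 88 Mb was above 0 in both, with 0.46 in rat 1 and 0.13 in rat 2.

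The highest fragment that holds 50 probes or more and has 1 sign in both rats was that from 47 to 48 Mb, with 0.69 in rat 1 and 0.64 in rat 2 over 50 probes. The fragment from 10 to 11 Mb followed with 0.63 and 0.56 over 80 probes, and that from 62 to 63 Mb with 0.51 and 0.47 over 59 probes. These 3 differ between the rats by less than they differ from 0. With only probes well above background, the fragment from 10 to 11 Mb had 0.59 in rat 1 but 0.30 in rat 2. The first fragment of the chromosome had 0.50 and 0.41, and the fragment from 22 to 23 Mb 0.50 and 0.37. With normexp background correction the mean levels of these 5 fragments lay between 0.0034 and 0.04, and the fragment from 10 to 11 Mb was then below 0 in rat 2. Their input was dim, with a mean log2 intensity in rat 1 between 4.44 and 5.59, against 6.05 over all probes of the chromosome.

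The lowest fragment was that from 73 to 74 Mb, with -0.27 in rat 1 and -0.73 in rat 2, and the spread between the rats of 0.32 was large beside its mean of -0.50. With only probes well above background its mean level was -0.32, and the fragment from 32 to 33 Mb was then lower, with -0.47. The other 4 of the 5 lowest adjoin each other between 31 and 35 Mb. From 32 to 33 Mb the levels were -0.52 in rat 1 and -0.29 in rat 2, and from 33 to 34 Mb they were -0.40 and -0.39. From 34 to 35 Mb they were -0.36 and -0.41, and from 31 to 32 Mb -0.37 and -0.35. The rats thus had closely similar levels in 3 of these 4 fragments. With normexp background correction the mean levels of the 5 lay between -0.15 and -0.10, below 0 in both rats. The input of the 4 neighbouring fragments had a mean log2 intensity in rat 1 from 6.13 to 7.19.

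The rats disagreed most, among fragments of opposite signs, from 26 to 27 Mb, with 0.30 in rat 1 and -0.29 in rat 2. From 15 to 16 Mb they had 0.34 and -0.21, and from 65 to 66 Mb 0.0044 and -0.39. In each case rat 2 was the lower.

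Steps between neighbouring fragments of 500 kb were examined next. Among 163 steps with at least 20 probes on both sides, 111 had the same direction in both rats, and the median size of a step was 0.18. The corresponding count for the other chromosomes is not given, so that nothing particular to chromosome 11 is read from it. In the mean of the rats the largest step lay at 63 Mb, at the proximal edge of the longest depleted stretch. The level went from 0.61 to -0.11 in rat 1 and from 0.56 to -0.55 in rat 2, a step of -0.91 ± 0.27 (SD, n = 2) between fragments of 23 and 25 probes. At 74 Mb, the distal edge of the same stretch, the level went from -0.31 to 0.28 in rat 1 and from -0.58 to 0.19 in rat 2. At 83.5 Mb it went from -0.07 to 0.40 and from -0.44 to 0.32. The edges of the stretches were drawn from the levels of the same probes, so that a step near an edge is no separate observation.

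The brightness of the input moved with each of these steps. At 63 Mb the mean log2 input intensity was higher on the distal side by 2.76 in rat 1 and 2.79 in rat 2, and the IP intensity by 2.04 and 1.68. Both channels thus became brighter where the level went down. At 74 Mb the input changed by -0.70 and -0.78, and the IP by -0.10 and -0.01. At 83.5 Mb the input changed by -1.06 and -1.26, and the IP by -0.60 and -0.50. The part of input brightness in the steps was not tested.

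Over the whole chromosome the level went with the brightness of the input. The correlation of the averaged level with the mean log2 input intensity over the 88 fragments was -0.84, and with the mean log2 IP intensity it was -0.57. The input intensity is the denominator of the level, and both rats were hybridised to the same probes, so that these values are no independent measurements. The input intensities of the rats had a correlation of 0.997 over the fragments, the IP intensities 0.90 and the levels 0.84. When the level of rat 1 was set against the input of rat 2, r was -0.81, and for the level of rat 2 against the input of rat 1 it was also -0.81. Over all fragments of the genome, the correlation of level with input intensity was -0.64.

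**Figure D4:**
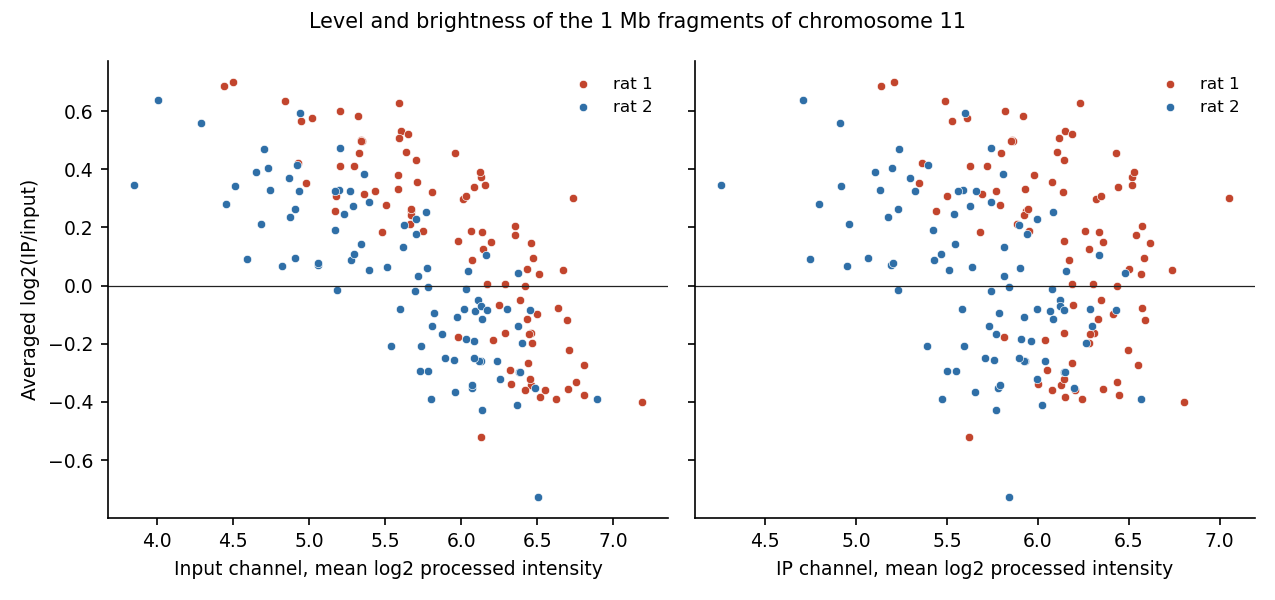
Averaged log2(IP/input) of the 88 fragments of 1 Mb of chromosome 11 against the mean log2 processed intensity of the input channel (left) and the IP channel (right), with rat 1 in red and rat 2 in blue. The level falls along the input axis in both rats and spreads more widely along the IP axis.

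Chromosome 11 had the dimmest input of the 20 autosomes on both arrays, with a mean log2 intensity of 6.05 in rat 1 and 5.67 in rat 2, against 6.21 and 5.85 over the other autosomes. In the long rich stretches the median input intensity was 57.4 in rat 1 and 43.8 in rat 2, and in the long depleted stretches it was 117 and 92.2. The median IP intensity was 86.1 and 59.8 in the rich and 96.2 and 78.7 in the depleted stretches. The rich stretches were therefore dimmer than the depleted ones in both channels, and more so in the input. Signals well above background in both colours on both arrays were found at 73.9% of the probes of rich and 80.6% of depleted stretches. The density of probes was 76.3 per Mb in rich and 113 per Mb in depleted stretches. How far brightness enters the levels was not tested.

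To separate the division of the chromosome from the levels read in it, the probes were grouped by the smoothed profile of one rat and their levels were read in the other. Probes that were rich in rat 1 had a mean level of 0.14 in rat 2, and probes that were depleted in rat 1 had -0.25. In the other direction, probes rich in rat 2 had 0.36 in rat 1 and those depleted in rat 2 had -0.13. The side assigned from one animal was thus also the side of the mean level in the other, and rich minus depleted was 0.39 in rat 2 and 0.49 in rat 1. Input brightness, which is shared by the rats, was not removed from these values.

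When the probes were further split into 5 classes of input brightness, with limits set over all placed probes, the difference between rich and depleted kept its sign in each class. In the dimmest class it was 0.44 when read in rat 2 and 0.36 when read in rat 1, and in the middle class it was 0.27 and 0.50. In the brightest class it was 0.02 and 0.10. The brightest class was low in both rats. Over all probes of the chromosome, the dimmest class had 0.36 and the brightest -0.38 in rat 1, and these levels were 0.39 and -0.66 in rat 2. The bright probes of the rich stretches were accordingly below 0, with -0.65 in rat 2 and -0.31 in rat 1.

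**Figure D5:**
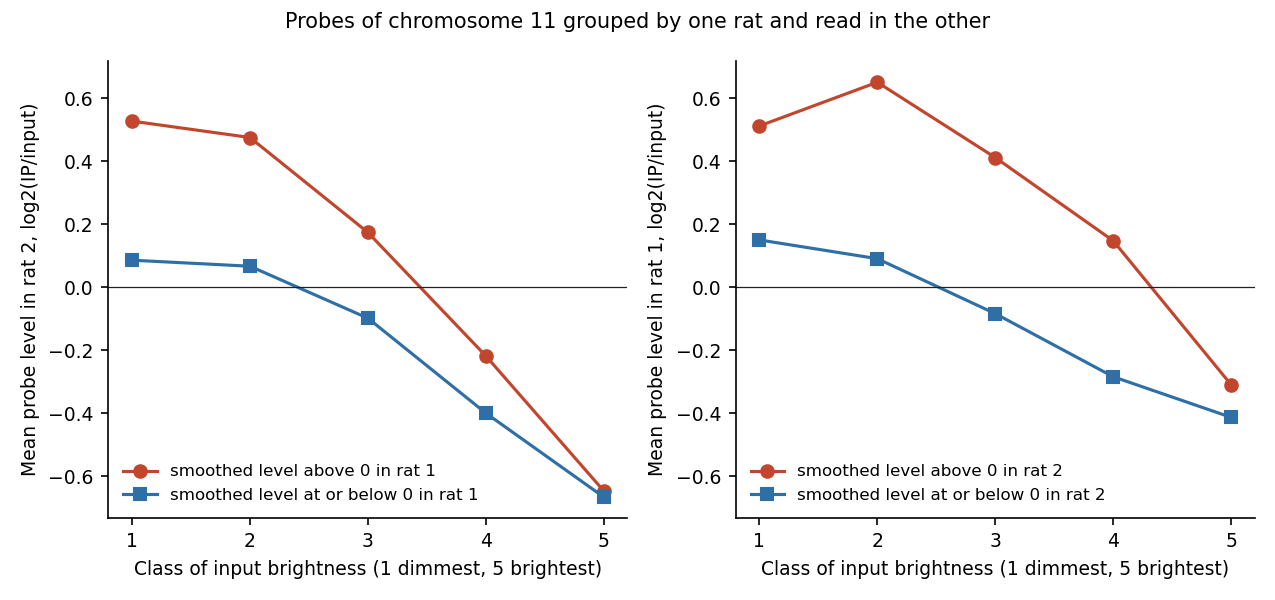
Mean level of the probes of chromosome 11 in 5 classes of input brightness, with probes grouped by the smoothed profile of rat 1 and read in rat 2 (left) or grouped by rat 2 and read in rat 1 (right), red for rich and blue for depleted. Red lies above blue in each class, by 0.44 and 0.36 in the dimmest and by 0.02 and 0.10 in the brightest.

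The level also went with the number of probes in a fragment, with a correlation of -0.47 over the 88 fragments. The 44 fragments with at least 85 probes had a mean level of -0.01 in rat 1 and -0.08 in rat 2, with 14 above 0 in both rats and 22 below. The 44 fragments with at most 83 probes had 0.30 and 0.13, with 30 above 0 in both rats and 5 below. The sparsely covered fragments were hence the richer ones on average in both rats. Giving each fragment the same weight therefore resulted in a higher mean, 0.14 in rat 1 and 0.02 in rat 2, than averaging over probes.

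The longest interval without a probe was 165 kb, between 24145106 and 24309780, in the short depleted stretch that follows the second rich stretch, with smoothed levels of -0.0039 and -0.08 on its sides. The others of the 5 longest intervals were 161, 146, 143 and 132 kb long. Smoothed levels on their sides were 0.27 and 0.19 at 55.0 Mb, 0.22 and 0.25 at 38.6 Mb, -0.35 and -0.36 at 30.4 Mb, and 0.27 and 0.26 at 18.8 Mb. No interval on the chromosome was therefore as long as the window of the profile.

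Single probes reached more extreme levels than fragments. The highest probe well above background on both arrays lies at chr11:59383952-59384011 and had 2.95 in rat 1 and 2.96 in rat 2, with input intensities of 20.5 and 16.1 and IP intensities of 160 and 131. The probes at chr11:20810689-20810748 and chr11:20239345-20239404 had 2.82 and 2.80 in rat 1 and 2.69 and 2.62 in rat 2, in that order. Their input intensities were 12.6 and 59.9 in rat 1 and 9.82 and 47.0 in rat 2. The probe at chr11:20810689-20810748 was thus below 16.9, the upper limit of the dimmest class of input brightness, in both rats. All 3 lie in rich stretches and had closely similar levels in both animals. Of the 3 lowest, only the probe at chr11:32709196-32709255 was low to a similar degree in both rats, with -3.04 in rat 1 and -3.41 in rat 2. The probe at chr11:32248044-32248103 had -1.11 and -6.45 and that at chr11:68670115-68670174 had -1.04 and -5.78, so that both owe their place to rat 2, in which their IP intensities were 13.4 and 10.2. All 3 lie in long depleted stretches.

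Chromosome 11 of the rat carries, among others, the genes of the guidance receptors Robo1 and Robo2 and of the calcium-sensing receptor Casr, which RefSeq places on chromosome 11 of the newer assembly GRCr8. Levels of genes are not given, because the files place probes by position on rn4 and name no genes.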

How the data were processed

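The authors scanned the arrays and used Agilent Feature Extraction 10.5.1.1, which subtracted background, removed spatial trends and matched the dyes by lowess, to obtain a processed intensity per channel. Intensities before dye matching, median intensities of spot and background, and log10 ratios of red over green were deposited too. The authors' table of log2 values equals log2 of processed red over green, with a largest difference of 6.2e-15, and is not centred.

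Of 7886 spots on chromosome 11, 10 with an outlier mark were left out, and spots were averaged by probe, which kept 7816 of 7820 probes. The median of each array was subtracted from its levels, and no loess or quantile step was added. Fragments were tested with limma 3.58.1 in R 4.3.3 (intercept, lmFit and eBayes, two-sided), with 1 residual degree of freedom per fragment and the spread pooled over fragments. The procedure was tested on simulated data, but no outcome is given here and nothing is read from it. Python 3.11.15, numpy 2.4.6, pandas 2.3.3, statsmodels 0.14.6 and matplotlib 3.10.9 were used otherwise.

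The members, the lists and the rule for named regions were chosen with earlier results of these data known. The rule takes the 4 longest rich and 4 longest depleted stretches, the 5 highest and 5 lowest fragments of 1 Mb that hold 50 probes or more and have 1 sign in both rats, up to 3 fragments of opposite signs, the 3 largest steps, the 5 longest intervals without a probe, and the 3 highest and 3 lowest probes well above background. Fragments and stretches at other positions, and the blocks between depleted stretches of at least 5 Mb, were chosen after their values were seen. Alternatives covered background correction (normexp with an offset of 50, on median signals), dye normalisation, centring, spot filters, input brightness, fragment size and grid, window and each rat alone. A genome or annotation of rn4 was not used here.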

Additional observations from a re-analysis of the deposited data

How the results depend on the processing

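Normexp background correction moved each of the 8 main values. It was applied to median intensities, so that the dye matching by lowess and the removal of spatial trends were left out in the same step. The parts of these changes in processing were not told apart. Normexp left 0 fragments called above 0 and 4 below 0 by limma, against 28 and 14. An unadjusted p under 0.05 in limma was found for 0 and 19 fragments, against 33 and 19 in the main setting. The mean level became -0.046, the share of fragments above 0 in both rats 19.3%, the correlation between rats 0.775, the rich length 29.4%, the longest rich stretch 3.18 Mb and the proximal minus distal difference 0.033. Chromosome 11 then ranked 5 among the 21 chromosomes in the share above 0 in both rats, whereas it ranked 1 under each of the other 13 settings of level or fragment compared. As the chromosome was selected on this share and the settings use the same 2 arrays, a kept rank is no sign of stability. Before dye normalisation it had 53.4%, against 51.7% on chromosome 2. The cause of the changes with normexp was not tested.

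Without the trend on input brightness, 13 fragments were called above 0, the correlation was 0.748 and the proximal minus distal difference 0.127. The share above 0 in both rats was then 48.9% against 50%, the rich length 61.8% against 62.5%, and 10 fragments against 14 were called below 0. The difference of proximal minus distal was 0.214 before dye normalisation, 0.155 with only probes well above background and 0.145 as a mean of fragment averages. Centring on the mean gave 61.4% of fragments above 0 in both rats. With 500 kb fragments 43 of 176 were called above 0 and 16 below, beside 15.9% and 12.5% over the genome. With 2 Mb fragments 17 of 44 were called above 0 and 10 below, beside 22.5% and 29.5%. The number of fragments differs by construction, and r was 0.755 and 0.904, in that order. The cause of the other changes was not tested. A criterion of 0.25 in both rats, the uncentred ratios, the other filters and grids and the windows of 250 kb and 1 Mb left the counts within 1.5 times, levels and lengths within the spread between rats and r within 0.05. With both rats, and apart from normexp and centring on the mean, the share above 0 in both was between 48.9% and 59.1%. The longest rich stretch ranged from 7.68 Mb with the 250 kb window to 26.5 Mb with the 1 Mb window, beside a spread between rats of 12.5 Mb.

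With each rat left out in turn, the share of fragments above 0 ranged from 51.1% to 68.2%, where a single rat decides the sign, the mean level from -0.020 to 0.079, the rich length from 51.2% to 67.2%, the longest rich stretch from 6.45 to 24.1 Mb and the proximal minus distal difference from 0.16 to 0.20. With 1 array left there are no residual degrees of freedom, so calls were not run. For the 10 fragments and 8 stretches named by rule, 9 alternatives chosen after seeing the data gave 162 levels, of which 73 moved by more than the spread between rats without a change of sign. As these regions were chosen for their level or length, signs that were kept are no sign of stability. With normexp 14 of 18 had the main sign in both rats. The 8 levels that stayed above 0 in the mean were at most 0.067 times the main level, and the 9 below 0 were 0.20 to 0.43 times. In order of length, the rich stretches became 0.0093, 0.015, -0.036 and 0.00023, the third with a change of sign, and the fragment from 62 to 63 Mb went from 0.49 to 0.0034. Without the trend on input brightness, the 9 levels above 0 had a median of 0.72 times the main level, and the 9 below 0 had 0.90 times. No paired analysis was possible because both arrays form a single group. Dim probes are limited by their signal over background and are more frequent in rich stretches, and their part in these changes was not tested. With only probes well above background, the 9 named levels above 0 had a median of 1.05 times the main level.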

Other observations

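The 85 probes on sequence assigned to chromosome 11 but not placed along it were not part of the profile. Their mean level was -0.13 in rat 1 and 0.12 in rat 2, and the rats thus differed in sign.

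The smoothed profiles of the rats were on the same side of 0 at 83.5% of the probes of chromosome 11, with 42.6% above 0 in both and 40.8% at or below 0 in both. In each rat alone, 58.2% of the probes were on the rich side in rat 1 and 43.6% in rat 2, and by length 67.2% of the chromosome was rich in rat 1 and 51.2% in rat 2. Rat 1 had 8 rich stretches of at least 1 Mb and rat 2 had 14.

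Of fragments with fewer than 50 probes, which the rule for named fragments leaves out, that from 6 to 7 Mb had 0.60 in rat 1 and 0.47 in rat 2 over 47 probes, and that from 39 to 40 Mb had 0.70 and 0.34 over 46 probes. Both were chosen after their values were seen. Apart from the run at the start of the chromosome, the longest runs of neighbouring fragments above 0 in both rats held 5 fragments each, from 19 to 24 Mb and from 38 to 43 Mb, while runs of 8 fragments below 0 in both rats lay from 30 to 38 Mb and from 66 to 74 Mb.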
